A study of Artemia parthenogenetic lineage with 6 samples.

Results

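The genes described here are the 115 genes of *Artemia parthenogenetica* cysts to which the authors' ATAC-seq peak table links 40 or more peaks each, out of 12010 genes that the table lists. Every row of the table is 1 peak and carries 1 gene, so the members were found by counting rows per gene. Together they hold 5582 of the 112790 peaks (4.95%). The 2 groups of whole cysts that were compared were ArD_0h, in diapause and with no treatment, and ArR_5h, collected 5 h after embryonic diapause termination (EDT), with 3 biological replicates in each. Both are wild type, of a parthenogenetic lineage from Ebinur Lake, and of the same batch of cysts. The labels name drying and cold storage as the means to break diapause, and the ArR_5h cysts were rehydrated in cold artificial seawater of 30‰ and then kept in it under constant light. The protocol gives 28 °C for all samples, while the treatment labels of ArR_5h replicates 1, 2 and 3 give 28, 29 and 30 °C, which is not settled here.

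In ATAC-seq the Tn5 transposase cuts open chromatin and leaves adaptors there, so that a peak marks a stretch of accessible DNA, and its read count follows how open that stretch is. Peaks at a transcription start site (TSS) usually mark promoters, while those far from it include enhancers and other elements that bind regulatory proteins. In animals, genes that control development often have many such elements spread over long stretches of DNA, and the nearest gene need not be the one that an element acts on. The *Artemia* cyst is an encysted gastrula whose metabolism and cell division are at rest in diapause and resume after EDT. A cyst holds many cell types, so fewer open cells and less open DNA per cell cannot be told apart in these libraries.

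The libraries held 5239170 to 9366963 counts in peaks, and the members' peaks held 322065 to 588855 of them. Levels are given in CPM, the usual depth-scaled counts, with library sizes corrected by TMM over all peaks. Over the members' peaks, ArD_0h replicate 1 correlated with replicates 2 and 3 at a Spearman coefficient of 0.745 each, replicates 2 and 3 at 0.876, and the ArR_5h replicates among themselves at 0.906 to 0.936. ArD_0h replicate 1 thus stands apart. Many counts of calls and some sums are given without it as well, while single peaks are given on all libraries only. The peaks are placed on contigs of the *A. franciscana* assembly, and positions are those of the authors' table.

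The members had 40 to 100 peaks, with a median of 44. Of them, 14 had exactly 40 peaks and 20 had 41, and just outside the limit 11 genes had 39 peaks and 16 had 38. Only 42 members had 50 or more and 14 had 60 or more. Their peaks were spread over 159 to 1072 kb per gene, with a median span of 407 kb against 75.7 kb for the other genes. The genes themselves were 0.339 to 359.6 kb long, with a median of 86.6 kb against 39.7 kb for the others, and 16 members were shorter than 5 kb. The peaks were hardly denser than elsewhere, with a median of 11.9 peaks per 100 kb of span against 10.2 in genes with 10 to 39 peaks. Of the tested peaks of members, 25.3% lay in the gene body, 0.737% over the TSS, 38.2% upstream and 35.7% beyond the gene end, while the same shares were 35.1%, 3.30%, 38.6% and 23.0% in the other genes. Many members were the outermost gene on their contig. In 83 of 115 (72.2%) the gene was the first or the last of those listed on its contig, against 29.6% of the other genes, and 22 members were the only listed gene there (19.1% against 4.83%). Genes with 30 to 39 peaks had a median span of 300 kb and a median length of 85.4 kb. Of these genes, 60.4% were first or last on their contig and 12.8% were the only one listed there. Long genes and contig edges are thus not particular to the members. The members lay on 107 contigs, 8 of which held a pair of them, with 59 on the plus and 56 on the minus strand.

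Accessibility at the members' peaks moved both ways between diapause and 5 h after EDT. Of 5563 peaks that passed the filter on low counts (19 did not), 979 (17.6%) were higher in ArR_5h and 744 (13.4%) lower. A call here needs a Benjamini-Hochberg adjusted p no larger than 0.05 from edgeR's quasi-likelihood test and a log2 difference of more than 1 either way. Over all 112211 tested peaks the shares were 14.5% higher and 15.2% lower, so both shares of the members lie near the background. The remaining 3840 peaks (69.0%) were not called. Per gene, 0 to 26 peaks were higher (median 7) and 0 to 25 were lower (median 5). Both kinds of called peak were found in 98 members, only higher ones in 8, only lower ones in 7, and neither in 2, evm.TU.ctg1097.10 and evm.TU.ctg1406.7_evm.TU.ctg1406.6, which are named here because of that count. Higher peaks outnumbered lower ones in 62 members, lower ones outnumbered higher ones in 45, and the numbers were equal in 8. Among the 227 genes with 30 to 39 peaks, 167 had both kinds, 24 only higher, 29 only lower and 7 neither. Higher peaks outnumbered lower ones in 104 of them and lower ones higher ones in 107. Of the 11895 other genes as a whole, 3301 had both kinds, 2741 only higher, 2945 only lower and 2908 neither. There the higher ones were more in 3861 and the lower ones in 4256. A gene with more peaks can more easily hold both kinds, so the count of 98 is not read as particular to the members. The split depends on the scaling, since with the library totals that scale the authors' RPM 1251 peaks were higher and 525 lower. These are 22.5% and 9.44%, and the background moved too, to 18.9% and 10.6% over all peaks. With the trend on level removed the members had 14.5% higher and 14.4% lower, against 13.9% and 13.4%. Without ArD_0h replicate 1 the counts were 653 higher and 652 lower, and without ArR_5h replicate 1 they were 700 and 468.

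**Figure D1:**
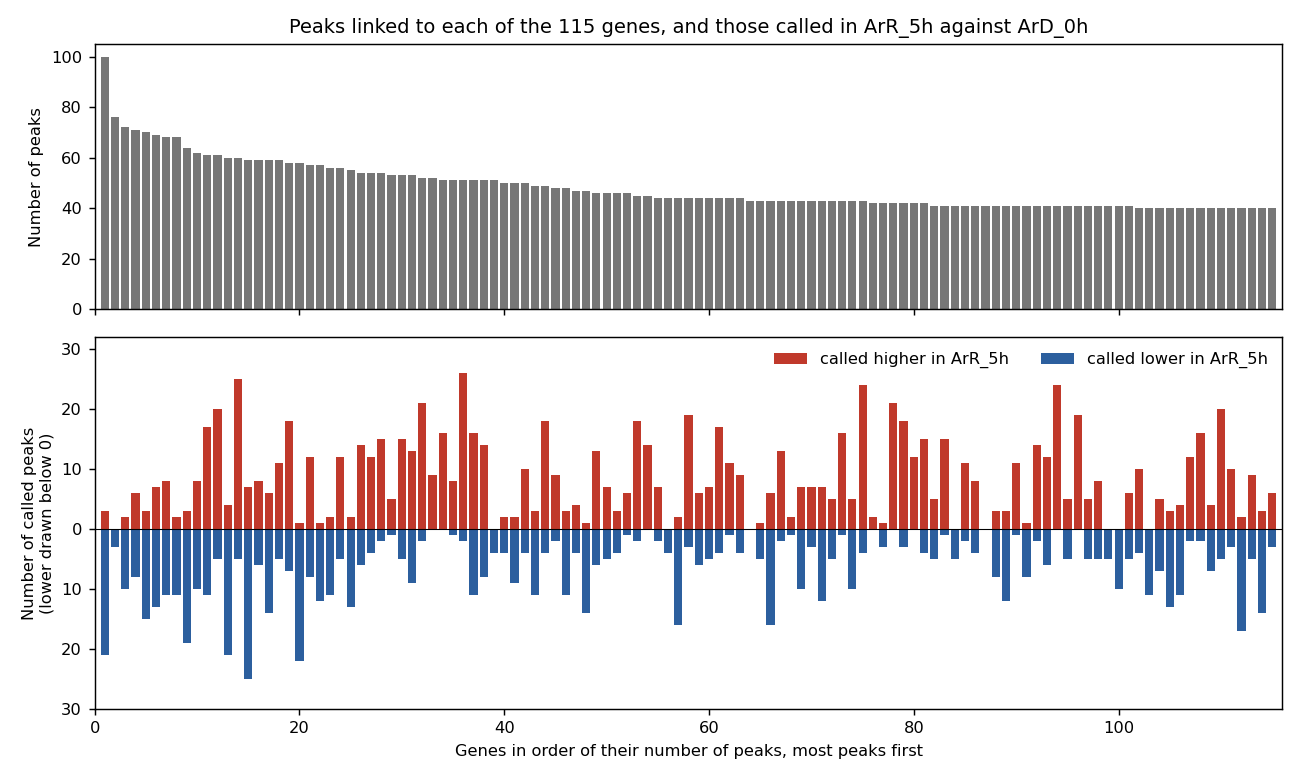
Number of peaks of each of the 115 genes (upper panel) and number of its peaks called higher or lower in ArR_5h (lower panel, red above and blue below 0), with genes ordered from 100 to 40 peaks along the x axis. Called peaks of both kinds are seen along the whole order, with up to 26 higher and up to 25 lower per gene.

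When the counts of all peaks of a gene were summed, which gives 1 value per gene and library, 40 of 115 members (34.8%) were higher in ArR_5h and 21 (18.3%) were lower at an adjusted p no larger than 0.05, and 54 were not called. The background over all 12002 genes tested in this way was 21.1% higher and 22.7% lower. The median log2 difference was 0.13 for the members and -0.01 for all genes, and the members' values ran from -0.73 to 1.08. All libraries of one group lay above all of the other in 83 members (72.2%), against 58.4% of all genes. The calls rest on few libraries, as only 27 members were higher and 8 lower without ArR_5h replicate 1, and 27 and 9 without its replicate 2. Of the 40 and the 21, 27 and 8 were called in every fit with 1 library left out. With the library totals that scale the RPM values, 57 were higher and 3 lower. That scaling moved the median log2 difference of the sums to 0.35 in the members and to 0.22 over all genes.

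The member with the largest rise as a sum was evm.TU.ctg261.24, which the study's gene list annotates with lipid transport, the movement of fats and sterols by carrier proteins. Its 41 peaks spanned 218 kb around a gene of 149 kb on ctg261. The sum was 196, 316 and 325 CPM over ArD_0h replicates 1 to 3 and 621, 572 and 576 CPM over ArR_5h replicates 1 to 3. All ArR_5h libraries lay far above all ArD_0h libraries, and ArD_0h replicate 1 was the lowest. The log2 difference was 1.08 ± 0.18 (SE, n = 3 against 3; adjusted p = 0.00164), the only one above 1 among the members. Of its peaks, 24 (58.5%) were higher and 0 were lower, with 11 of the higher ones in the gene body, 8 upstream and 5 beyond the end. It had no peak over its TSS.

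The next largest rises were in evm.TU.ctg35.27, evm.TU.ctg99.7 and evm.TU.ctg166.6_evm.TU.ctg166.5_evm.TU.ctg166.7, an ID that joins 3 gene models. In evm.TU.ctg35.27 the sum was 193, 263 and 239 CPM in ArD_0h and 447, 455 and 403 CPM in ArR_5h (replicates 1, 2 and 3 in order), a difference of 0.91 ± 0.13 (adjusted p = 0.000969). No library of one group reached the other, and 19 of its 41 peaks were higher and 0 lower, 11 of them in the gene body and 8 upstream. In evm.TU.ctg99.7 the sum was 236, 279 and 283 CPM in ArD_0h and 499, 494 and 474 CPM in ArR_5h, a difference of 0.88 ± 0.10 (adjusted p = 0.000639). There 24 of 42 tested peaks were higher (57.1%) and 4 lower, and 17 of the higher ones lay in the gene, which is 172 kb long. In the joined model the sum was 241, 375 and 376 CPM in ArD_0h and 621, 619 and 573 CPM in ArR_5h, a difference of 0.87 ± 0.16 (adjusted p = 0.00297). It has 51 peaks over 349 kb, of which 26 were higher, the most in any member, and 2 lower. Of the higher ones, 22 lay in the gene body, which held 39 of its peaks. These 4 genes remained higher in every fit with 1 library left out.

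The largest falls as a sum were smaller in size. evm.TU.ctg686.12, a gene of 231 kb with 40 peaks over 561 kb, had 231, 226 and 222 CPM over ArD_0h replicates 1 to 3 and 125, 137 and 149 CPM over ArR_5h replicates 1 to 3. The ArD_0h values lay close together and above every ArR_5h value, and the difference was -0.73 ± 0.10 (adjusted p = 0.000864). Of its peaks 17 (42.5%) were lower and 2 higher, and the lower ones were spread over the gene body (5), the upstream side (6) and the DNA beyond the end (6). evm.TU.ctg1590.1, the only listed gene on its contig, had 598, 386 and 383 CPM in ArD_0h and 249, 277 and 319 CPM in ArR_5h, a difference of -0.70 ± 0.18 (adjusted p = 0.0122), with 11 peaks lower and 0 higher. ArD_0h replicate 1 was far above the others there, and without it the difference was -0.45. The call was lost without ArR_5h replicate 1 (adjusted p = 0.0661) and without its replicate 2 (0.051). evm.TU.ctg527.15 had 365, 434 and 443 CPM in ArD_0h and 282, 259.5 and 284 CPM in ArR_5h, a difference of -0.59 ± 0.11 (adjusted p = 0.00268), and 22 of its 58 peaks were lower, 21 of these beyond the gene end. evm.TU.ctg239.29 had 366, 301 and 305 CPM in ArD_0h and 215, 225 and 206 CPM in ArR_5h, a difference of -0.59 ± 0.11 (adjusted p = 0.00275), with 16 of 44 peaks lower, 7 upstream and 9 beyond the end. The groups did not overlap in either gene, and both remained lower in every fit with 1 library left out. With the library totals that scale the RPM values evm.TU.ctg527.15 was no longer called (-0.38).

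**Figure D2:**
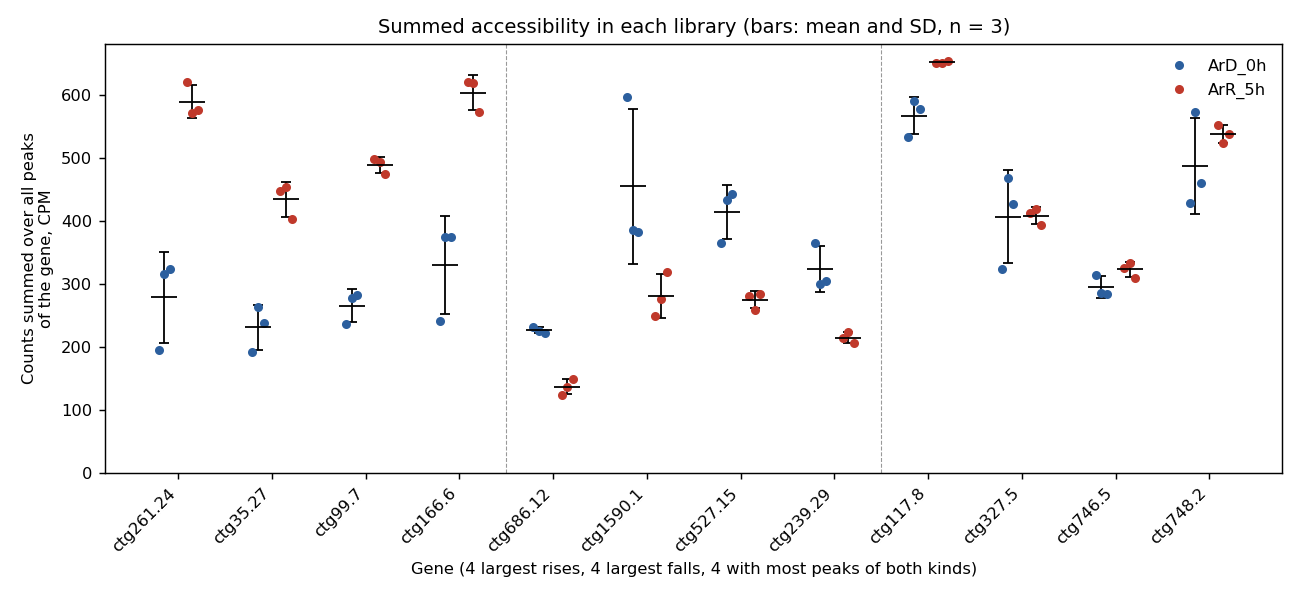
Counts summed over all peaks of a gene, in CPM, for the 4 members with the largest rise, the 4 with the largest fall and the 4 with the most peaks of both kinds, from left to right. Points are libraries (ArD_0h blue, ArR_5h red) and bars the mean and SD of 3. The groups are apart in the first 8 genes, and in ctg327.5 the ArR_5h libraries (395 to 419 CPM) lie between those of ArD_0h (325 to 468 CPM).

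The shares of higher and lower peaks were counted by the place of a peak relative to its gene. Over the TSS 14 of 41 member peaks (34.1%) were higher and 0 were lower, where the background over all TSS peaks was 27.5% and 0.982%. In gene bodies 368 of 1409 (26.1%) were higher and 69 (4.90%) lower, against 16.6% and 10.7% over all gene-body peaks. Upstream, 350 of 2125 (16.5%) were higher and 303 (14.3%) lower, against 13.0% and 18.0%. Beyond the gene end, 247 of 1988 (12.4%) were higher and 372 (18.7%) lower, close to the background of 12.0% and 19.3%. In the 227 genes with 30 to 39 peaks, 21.3% of the gene-body peaks were higher and 7.81% lower. Peaks of 1 gene share their libraries, so these shares were not tested against each other. They were read without ArD_0h replicate 1 too, where 250 peaks in or at the start of the members' genes were higher (17.2%) and 4.41% lower, against 12.9% and 8.28% over all genes.

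**Figure D3:**
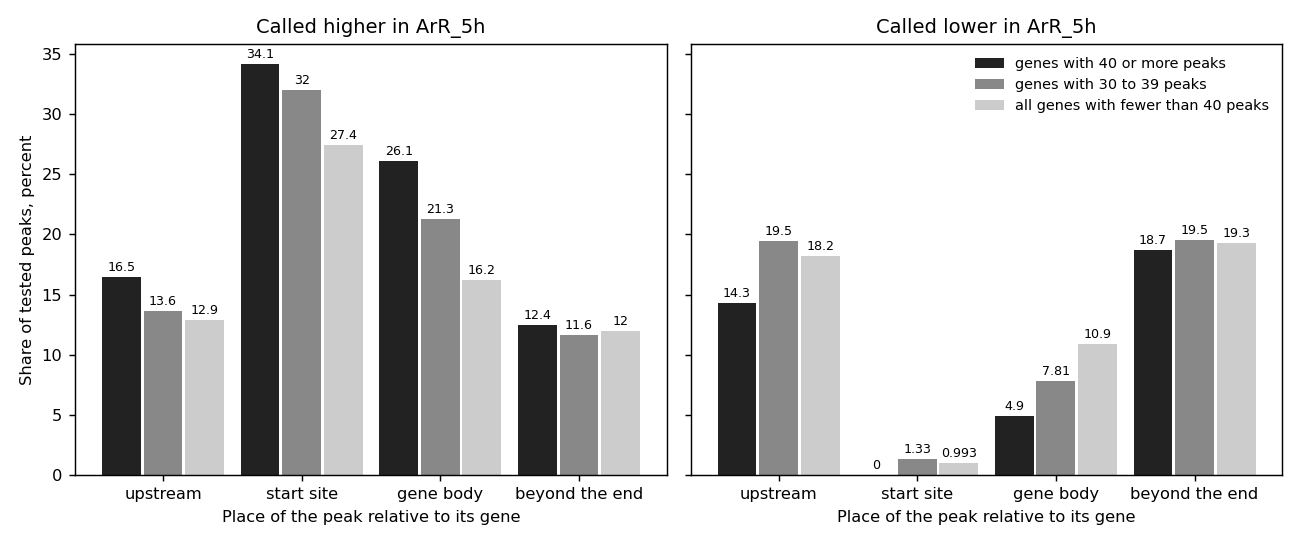
Share of tested peaks, in percent, called higher (left) and lower (right) in ArR_5h by place relative to the gene, for genes with 40 or more peaks, with 30 to 39 peaks and for all genes with fewer than 40. In gene bodies of the members 26.1% were higher and 4.90% lower, while beyond the gene end 12.4% were higher and 18.7% lower.

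The shares were also counted by distance from the TSS. Up to 5 kb downstream of the TSS 9 of 60 peaks were higher and 3 lower. From 5 to 20 kb downstream of the TSS 24.5% of 237 peaks were higher and 3.80% lower, and from 50 to 100 kb 21.2% of 600 peaks were higher and 8.33% lower. Beyond 200 kb downstream the shares were 14.1% and 21.9% of 1123 peaks in 63 genes. In the other genes, the first 5 kb downstream had 13.0% of peaks called higher and 7.98% called lower. Their shares for 5 to 20 kb were 14.4% and 11.1%, for 50 to 100 kb 15.4% and 14.5%, and beyond 200 kb 10.3% and 27.5%. Upstream, 22.2% of 329 peaks at 20 to 50 kb were higher and 11.6% lower, and at 100 to 200 kb 14.3% of 575 were higher and 19.5% lower. For the other genes these upstream ranges gave 13.3% and 18.1%, then 11.9% and 25.0%. More than 200 kb upstream the shares were 12.3% and 11.1% of 478 peaks in 38 genes, where the other genes had 9.68% and 31.0% of 1209 peaks. With the main scaling, the members had the larger share of higher peaks and the smaller share of lower ones in each of these ranges. Within 5 kb upstream the lower share was the larger in members, with 12.0% of 83 peaks and 8.53% in the other genes. These shares are given as a description, since each gene adds many peaks. They also depend on the processing. With the trend on level removed, 12.0% of the members' peaks outside genes were higher and 17.5% lower, against 12.4% and 16.2% over all genes. Inside genes the shares were then 21.6% and 5.79%, against 16.2% and 8.76%.

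The share of the members' counts that fell inside gene bodies gives 1 value per library. It was 21.2%, 22.9% and 22.7% over ArD_0h replicates 1 to 3 and 28.2%, 27.9% and 26.9% over ArR_5h replicates 1 to 3. Every ArR_5h library was above every ArD_0h library, with means of 22.3% ± 0.913 and 27.7% ± 0.705 (SD, n = 3 each), and the 2-sided exact permutation test gave p = 0.1, the smallest it can give here. The share at the members' TSS peaks was 0.840%, 1.61% and 1.56% in ArD_0h and 2.18%, 2.15% and 1.92% in ArR_5h, with ArD_0h replicate 1 far below the rest. These 2 shares were not set against the same shares over all genes. There too, gene-body peaks were more often higher (16.6%) than lower (10.7%), as were TSS peaks (27.5% and 0.982%). The rises are thus not read as particular to the members. The share of all counts in peaks that the members held was 6.19%, 6.14% and 6.15% in ArD_0h and 6.29%, 6.29% and 6.28% in ArR_5h. The means were 6.16% ± 0.0244 and 6.29% ± 0.00963 (exact permutation test, 2-sided p = 0.1), so the members as a whole held nearly the same share in both groups.

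A peak overlapped the TSS in 41 of the 115 members (35.7%), against 29.6% of the other genes. These peaks were wide, with a median of 809 bp against 349 bp for all member peaks, and their median level per kb of peak was 28.8 CPM against 19.0 CPM for the other member peaks. In 9 genes the TSS peak was the strongest per kb among all peaks of the gene, and in 18 it was among the top 3. In the 74 members without one, the nearest peak lay within 3000 bp of the TSS in 40 and farther away in 34, at up to 19222 bp. Of the 41 TSS peaks, 38 had a positive log2 difference, and the groups did not overlap in 32. The median was 0.85 in the members and 0.71 over all 3565 TSS peaks. A positive difference with an adjusted p no larger than 0.05 was found in 23, of which 14 also passed the limit on size. These 14 are 34.1% of the members' TSS peaks, against 27.5% called higher over all TSS peaks. The counts of 38, 32 and 23 were not set against all TSS peaks, so they are not read as particular to the members.

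The largest TSS rise was in evm.TU.ctg543.12, annotated with oxidoreductase activity, that of enzymes that move electrons between molecules. Its gene model is only 339 bp long, and the TSS peak lies on ctg543 from 1059919 to 1060118. The peak had 3.90, 2.45 and 3.80 CPM over ArD_0h replicates 1 to 3 and 14.4, 10.7 and 7.31 CPM over ArR_5h replicates 1 to 3. All ArR_5h values were above all of ArD_0h, and the difference was 1.69 ± 0.32 (adjusted p = 0.000602). In evm.TU.ctg58.9 the TSS peak had 13.2, 23.1 and 35.2 CPM in ArD_0h and 71.6, 64.0 and 52.5 CPM in ArR_5h, a difference of 1.40 ± 0.31 (adjusted p = 0.0019), and in evm.TU.ctg2224.17 it had 2.50, 3.67 and 5.89 CPM in ArD_0h and 8.89, 10.5 and 11.4 CPM in ArR_5h, a difference of 1.37 ± 0.32 (adjusted p = 0.00233). ArD_0h replicate 1 was the lowest library in both. The TSS peak of evm.TU.ctg327.5 had 7.93, 16.8 and 13.7 CPM in ArD_0h and 34.3, 32.8 and 26.8 CPM in ArR_5h. The difference was 1.29 ± 0.31 (adjusted p = 0.00302), and there too ArD_0h replicate 1 was the lowest. In evm.TU.ctg2224.17 the TSS rose while the sum over its 49 peaks fell, by a log2 difference of -0.41 ± 0.10 (adjusted p = 0.00955), from 838 ± 35.3 CPM to 631 ± 48.2 CPM (SD, n = 3). That sum was not called without ArR_5h replicate 1 (adjusted p = 0.0581) or replicate 2 (0.0642).

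A negative TSS difference was seen in 3 members, and 0 of them passed the limits. evm.TU.ctg1159.3, a gene of 885 bp, had 56.1, 44.6 and 37.2 CPM over ArD_0h replicates 1 to 3 and 28.4, 24.9 and 27.2 CPM over ArR_5h replicates 1 to 3 at its TSS, with the groups apart and a difference of -0.78 ± 0.28 (adjusted p = 0.0289), within the limit of 1 on size. evm.TU.ctg2602.3 had 36.4, 21.6 and 26.2 CPM in ArD_0h and 16.2, 16.8 and 18.6 CPM in ArR_5h, a difference of -0.71 ± 0.29 (adjusted p = 0.0545). evm.TU.ctg206.40, annotated with calcium ion binding, had 5.70, 5.20 and 6.27 CPM in ArD_0h and 3.94, 3.78 and 3.94 CPM in ArR_5h, a difference of -0.56 ± 0.32 (adjusted p = 0.159). In these 3 genes ArD_0h replicate 1 was the highest or the middle value of its group at the TSS, whereas it was the lowest ArD_0h library at 34 of the 41 TSS peaks. Without it only 5 of the 14 higher TSS peaks of members kept their call. These 5 were 12.2% of the members' TSS peaks, against 13.7% of all TSS peaks. The median fell to 0.54 in the members and 0.41 over all. Without ArR_5h replicate 2, 8 were higher (19.5% against 22.1%). No TSS peak of a member was lower in any fit with 1 library left out.

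**Figure D4:**
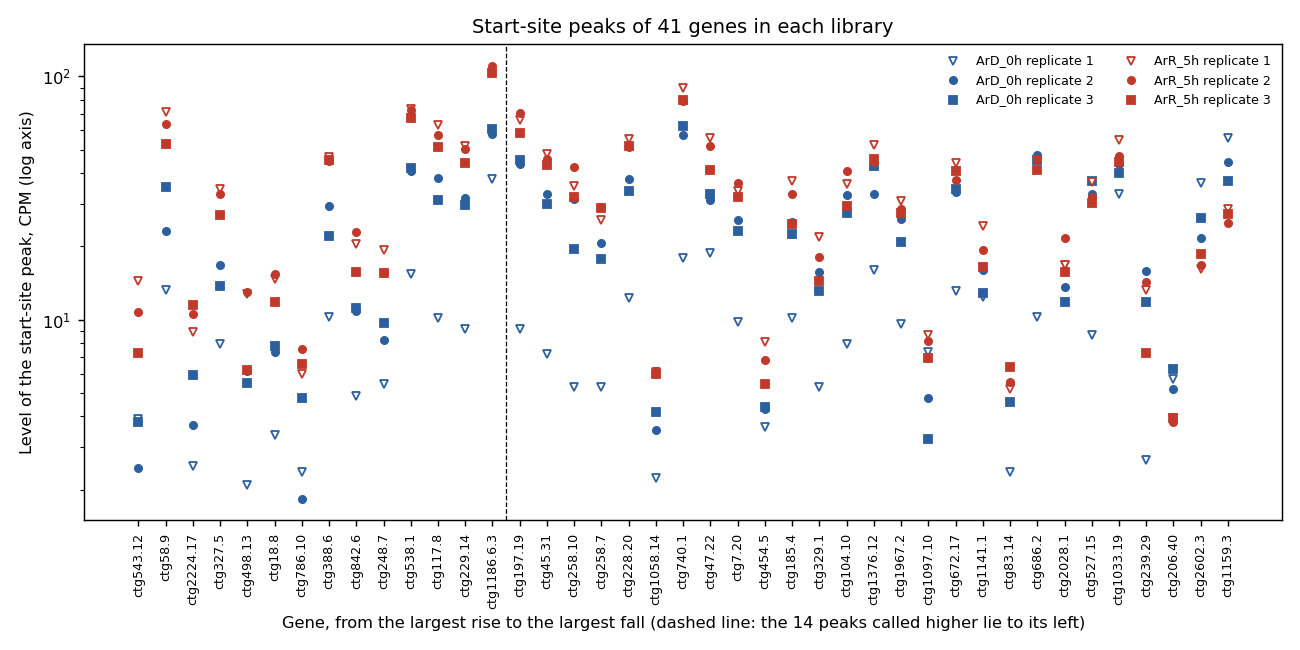
Level of the TSS peak in each library, in CPM on a log axis, for the 41 members that have one, ordered along the x axis from the largest rise to the largest fall. ArD_0h replicate 1 (open blue triangles) is the lowest ArD_0h library at 34 of them, and the 14 called peaks lie left of the dashed line.

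The member with the most peaks was evm.TU.ctg1227.2, a gene of 56.8 kb on the minus strand and the only one listed on its contig, with 100 peaks over 707 kb. Of these, 95 lay beyond the gene end, 4 in its body and 1 upstream, and the farthest was 704133 bp from the TSS. The sum was 1598, 1962 and 2058 CPM over ArD_0h replicates 1 to 3 and 1715, 1684 and 1797 CPM over ArR_5h replicates 1 to 3, with the groups overlapping and a difference of -0.11 ± 0.12 (SE, n = 3 against 3; adjusted p = 0.455). Of its peaks 21 were lower, all of them beyond the gene end, and 3 were higher. Without ArD_0h replicate 1 the sum was called lower, at -0.21. evm.TU.ctg1737.1 came next with 76 peaks over 423 kb around a gene of 50.7 kb, with 3 peaks lower and 0 higher. Its sum was 2001, 1597 and 1631 CPM in ArD_0h and 1491, 1499 and 1525 CPM in ArR_5h, a difference of -0.21 ± 0.11 (adjusted p = 0.153), with ArD_0h replicate 1 well above the rest. evm.TU.ctg49.7, a gene of 1251 bp, had 72 peaks, all of them upstream, the nearest at 4563 bp and the farthest at 507349 bp. Its sum was 1449, 1107 and 1074 CPM in ArD_0h and 909.7, 933 and 1004 CPM in ArR_5h, a difference of -0.35 ± 0.13 (adjusted p = 0.0514), and 10 peaks were lower and 2 higher.

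Of the other members among the 10 with the most peaks, 2 were lower as a sum. evm.TU.ctg2160.1, a gene of only 754 bp with 70 peaks over 346 kb, had 1263, 1304 and 1332 CPM in ArD_0h and 1002, 1002 and 1084 CPM in ArR_5h, a difference of -0.34 ± 0.09 (adjusted p = 0.017). There 14 of its 15 lower peaks lay upstream, where it had 21 peaks, and its 3 higher ones lay beyond the end. The call was lost without ArD_0h replicate 3 (adjusted p = 0.0595), ArR_5h replicate 1 (0.0905) or ArR_5h replicate 2 (0.0955). evm.TU.ctg121.5, with 64 peaks over 571 kb, had 625, 623 and 659 CPM in ArD_0h and 420.3, 459 and 459 CPM in ArR_5h, a difference of -0.51 ± 0.09 (adjusted p = 0.00273), and 19 peaks were lower and 3 higher. It was lower in every fit with 1 library left out, but not with the library totals that scale the RPM values (-0.29).

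evm.TU.ctg326.4, with 69 peaks, spanned 1031 kb, and evm.TU.ctg248.7, with 62, spanned 1072 kb, the widest of all members. In evm.TU.ctg326.4 7 peaks were higher and 13 lower, and the sum differed by 0.18 ± 0.10 (adjusted p = 0.16). Its 11 gene-body peaks summed to 82.4, 55.4 and 59.8 CPM in ArD_0h and 35.1, 33.8 and 41.8 CPM in ArR_5h, which fell by 0.84 ± 0.17 (adjusted p = 0.00468) on the log2 scale, while the peaks outside differed by 0.27 ± 0.12 (adjusted p = 0.0851). evm.TU.ctg248.7, annotated with metalloendopeptidase activity, that of metal-dependent enzymes that cut proteins, had 8 higher and 10 lower peaks, the lower ones all beyond the gene end. Its TSS peak was higher at 5.43, 8.26 and 9.69 CPM in ArD_0h and 19.2, 15.6 and 15.6 CPM in ArR_5h. The difference was 1.12 ± 0.29 (adjusted p = 0.00485), with ArD_0h replicate 1 the lowest library. evm.TU.ctg1682.4 (71 peaks, 6 higher and 8 lower), evm.TU.ctg1033.5 (68 peaks, 8 and 11) and evm.TU.ctg424.7 (68 peaks, 2 and 11) were not called as a sum, with log2 differences of 0.16, 0.04 and -0.14.

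Among the members with the largest share of higher peaks, evm.TU.ctg543.12 stood out for the place of its peaks. Of 40 peaks over 486 kb, 20 were higher and 5 lower. Its sum was 266, 286 and 315 CPM in ArD_0h and 529, 459 and 484 CPM in ArR_5h, a difference of 0.76 ± 0.11 (adjusted p = 0.000961), with no overlap of the groups. The TSS peak was 1 of a run of 11 neighbouring tested peaks, all higher, on ctg543 from 1020315 to 1084975, a stretch of 64.7 kb that reaches from 24.4 kb upstream to 38.9 kb downstream of the TSS. Together these 11 peaks had 56.1, 91.7 and 92.7 CPM in ArD_0h and 311, 244 and 253 CPM in ArR_5h, and their log2 differences were 1.10 to 2.65. The largest, on ctg543 from 1044268 to 1045004, had 6.54, 8.87 and 8.36 CPM in ArD_0h and 62.0, 39.9 and 47.2 CPM in ArR_5h, a difference of 2.65 ± 0.31 (adjusted p = 2.6e-05).

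The longest run of all was in evm.TU.ctg1427.4, a gene of 2384 bp and the only one listed on its contig. Of its 60 peaks 25 were higher and 5 lower, and the sum of 555, 532 and 532 CPM in ArD_0h and 946, 851 and 861 CPM in ArR_5h rose by 0.71 ± 0.09 (adjusted p = 0.000802). Its run held 14 higher peaks on ctg1427 from 307444 to 344732, from 22.9 kb upstream to 13.3 kb downstream of the TSS. The peaks of the run summed to 60.9, 80.1 and 77.5 CPM in ArD_0h and 270.2, 222 and 216 CPM in ArR_5h, with log2 differences of 1.09 to 2.66, and all ArR_5h values were above all of ArD_0h. The strongest rise in the run, on ctg1427 from 316064 to 316313, went from 2.36, 2.60 and 1.90 CPM to 16.9, 12.9 and 14.2 CPM, by 2.66 ± 0.31 (adjusted p = 2.6e-05). Farther upstream, on ctg1427 from 381960 to 383441, a wide peak of 1482 bp had 9.46, 21.6 and 12.7 CPM in ArD_0h and 85.5, 80.9 and 72.7 CPM in ArR_5h, a difference of 2.45 ± 0.31 (adjusted p = 4.5e-05). The lower peaks of this gene lay 88 to 194 kb downstream of the TSS.

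Runs of lower peaks were found as well. In evm.TU.ctg863.3, a gene of 171 kb with 57 peaks, 11 neighbouring peaks were lower on ctg863 from 5556 to 140314, all of them beyond the gene end. They summed to 124, 141 and 119.5 CPM over ArD_0h replicates 1 to 3 and 30.9, 40.4 and 51.2 CPM over ArR_5h replicates 1 to 3. Every ArR_5h value lay below every ArD_0h value, and the single log2 differences were -2.77 to -1.01. Over all peaks outside the gene the difference was -1.05 ± 0.12 (adjusted p = 0.000642), while the 37 peaks in the gene body differed by -0.06 ± 0.10 (adjusted p = 0.676). As a whole the gene's sum differed by -0.28 ± 0.09 (adjusted p = 0.0308), a call lost in 5 of the 6 fits with 1 library left out (without ArR_5h replicate 1, adjusted p = 0.128). The run includes 2 of the 5 largest falls among member peaks, at 318 kb downstream of the TSS. These went from 3.62, 5.81 and 7.03 CPM to 0.338, 0.708 and 1.50 CPM, and from 5.43, 10.7 and 8.55 CPM to 1.24, 1.18 and 1.31 CPM.

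The members with the largest shares of lower peaks besides evm.TU.ctg686.12 and evm.TU.ctg527.15 were evm.TU.ctg104.10 and evm.TU.ctg176.10. In evm.TU.ctg104.10 25 of 59 peaks (42.4%) were lower, the most in any member, and 23 of them lay beyond the gene end, where it had 42 peaks. Its sum was 428, 488 and 456 CPM in ArD_0h and 359.7, 379.7 and 384 CPM in ArR_5h, a difference of -0.29 ± 0.10 (adjusted p = 0.0354), which was lost in 5 of the 6 fits with 1 library left out (without ArR_5h replicate 1, adjusted p = 0.139). In evm.TU.ctg176.10 16 of 43 peaks (37.2%) were lower, all beyond the gene end, and 6 were higher. Its sum was 712, 445 and 387 CPM in ArD_0h and 342, 335 and 480.2 CPM in ArR_5h, with the groups overlapping and a difference of -0.42 ± 0.23 (adjusted p = 0.158).

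The 5 largest rises of single peaks with no overlap between the groups were in 4 members, and the 5 largest falls were in 3. The largest fall was at evm.TU.ctg686.12, on ctg686 from 1168275 to 1168479, 92005 bp upstream of the TSS. It had 3.90, 4.43 and 3.61 CPM over ArD_0h replicates 1 to 3 and 0.225, 0.354 and 0.75 CPM over ArR_5h replicates 1 to 3, a difference of -3.23 ± 0.64 (adjusted p = 0.00082). Another peak of that gene, on ctg686 from 869675 to 869931 in the gene body, had 4.31, 6.12 and 5.13 CPM in ArD_0h and 0.675, 0.708 and 1.12 CPM in ArR_5h, a difference of -2.65 ± 0.50 (adjusted p = 0.000558). In evm.TU.ctg746.5 a peak 159431 bp upstream had 4.87, 4.13 and 2.09 CPM in ArD_0h and 0.338, 0.472 and 0.937 CPM in ArR_5h, a difference of -2.74 ± 0.64 (adjusted p = 0.00256). All of these were low in every ArR_5h library, near or below 1 CPM. The largest rise was at evm.TU.ctg778.4, annotated as a nucleotide-binding hydrolase, on ctg778 from 513870 to 514129, 299949 bp from the TSS. It had 0.556, 0.612 and 0.76 CPM over ArD_0h replicates 1 to 3 and 4.84, 3.78 and 4.87 CPM over ArR_5h replicates 1 to 3, a difference of 2.79 ± 0.55 (adjusted p = 0.000803). In evm.TU.ctg58.9 a gene-body peak 67473 bp from the TSS had 0.696, 1.83 and 1.14 CPM in ArD_0h and 7.31, 10.6 and 7.12 CPM in ArR_5h, a difference of 2.77 ± 0.39 (adjusted p = 8.3e-05). These 10 peaks were picked for their size, so their differences are a description.

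In 4 members many peaks rose and many fell. evm.TU.ctg117.8, annotated with protein binding, had 17 higher and 11 lower peaks of 61. Its higher peaks included the TSS peak, 10 in the gene body and 6 upstream, and all 11 lower ones lay upstream, 176 to 309 kb from the TSS. A run of 6 higher peaks lay 41.5 to 75.2 kb inside the gene and a run of 6 lower ones 180 to 188 kb upstream. Its peaks inside the gene summed to 108, 179.7 and 171 CPM in ArD_0h and 317, 295 and 288 CPM in ArR_5h, a difference of 0.97 ± 0.17 (adjusted p = 0.00265), and those outside to 427, 409 and 410.2 CPM in ArD_0h and 335, 355 and 364 CPM in ArR_5h, a difference of -0.24 ± 0.10 (adjusted p = 0.0706). The sum over all of its peaks was not called, at 0.20 ± 0.09 (adjusted p = 0.103).

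evm.TU.ctg327.5 had 16 higher and 11 lower peaks of 51, and the sum hardly moved, with 325, 468 and 428 CPM in ArD_0h and 413, 419 and 395 CPM in ArR_5h and a difference of 0.01 ± 0.13 (adjusted p = 0.968). Its TSS peak and 4 gene-body peaks were higher and 0 inside the gene lower, while beyond the end 11 were higher and 11 lower. evm.TU.ctg746.5, annotated with protein binding, had 13 higher and 9 lower peaks of 52, with all 9 lower ones upstream and 7 of the higher ones in the gene. Inside the gene its sum went from 42.4, 58.2 and 48.9 CPM to 109, 101 and 82.0 CPM, by 0.97 ± 0.16 (adjusted p = 0.00169). evm.TU.ctg748.2, the only listed gene on its contig, had 14 higher and 8 lower peaks of 51. Of the higher ones 11 lay upstream and 3 in the gene, and 7 of the lower ones beyond the end, including a run of 6 from 96.6 to 165 kb downstream of the TSS.

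**Figure D5:**
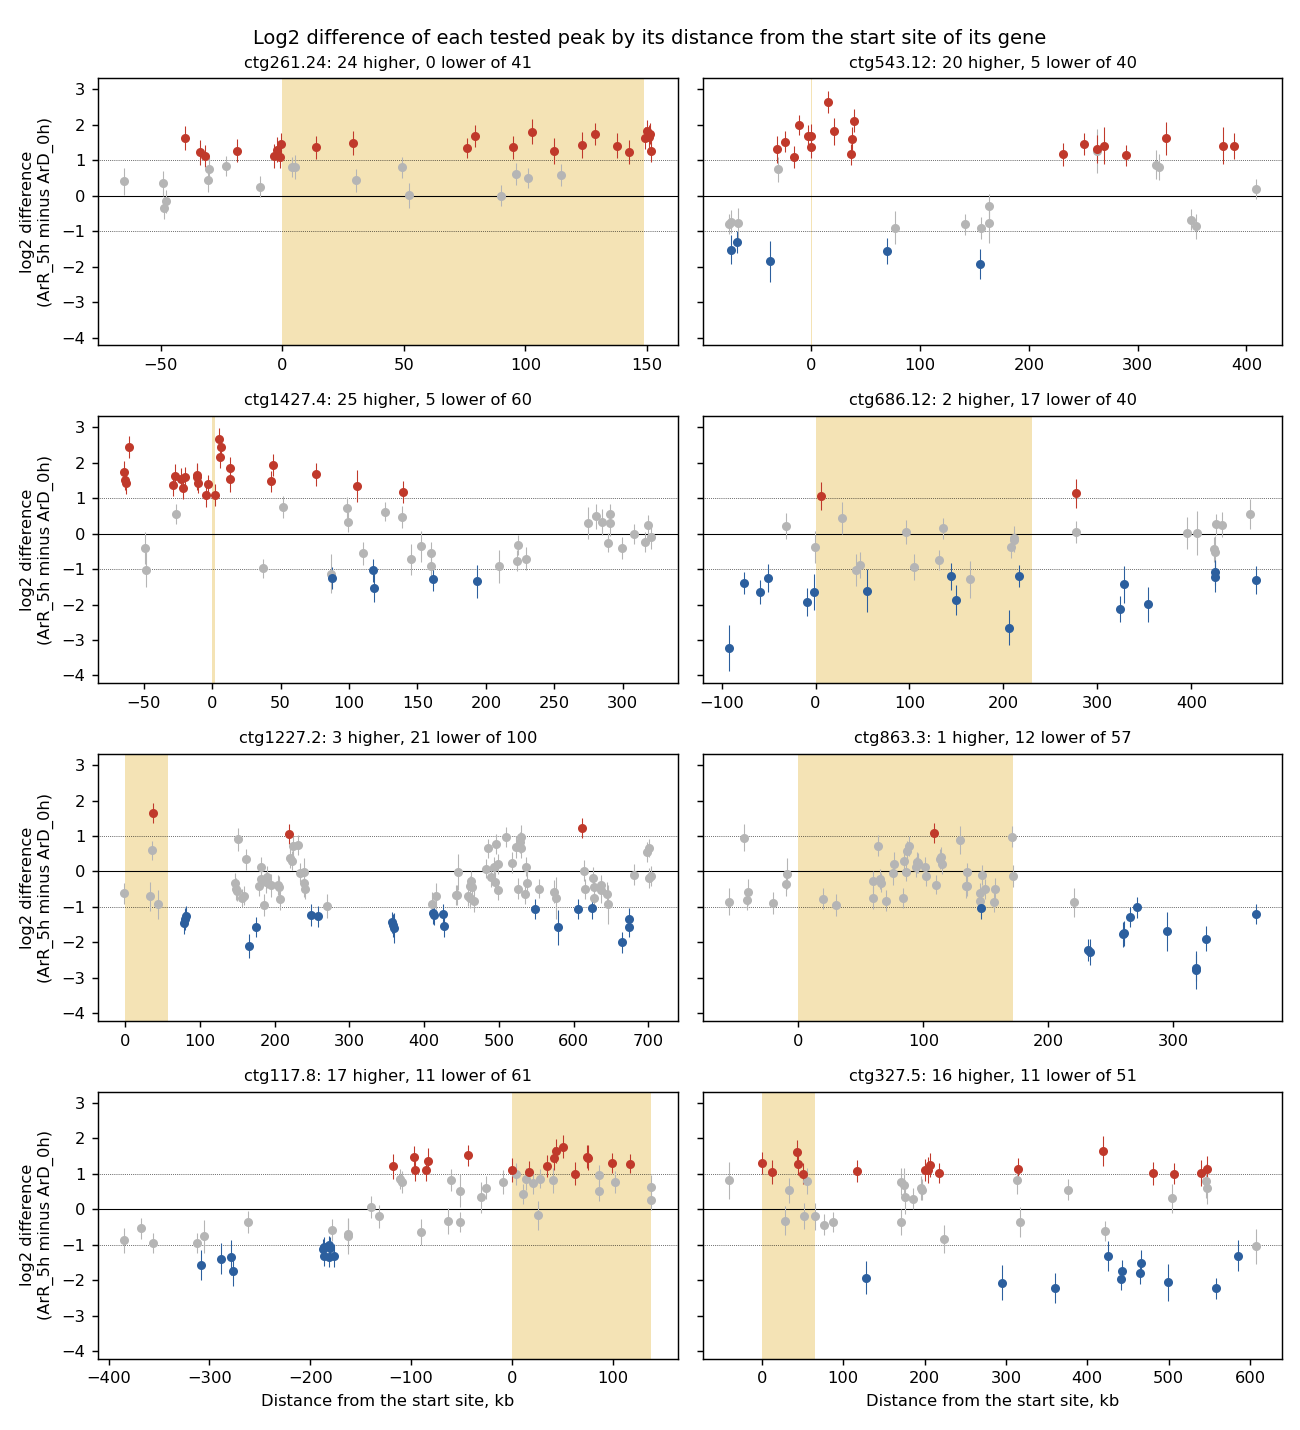
Log2 difference (ArR_5h minus ArD_0h) of each tested peak against its distance from the TSS in kb for 8 members, positive distances being downstream. Red points are called higher, blue lower and grey not called, error bars are the SE, shading is the gene, and dotted lines mark the limit of 1. In ctg261.24 24 peaks are higher and 0 lower, and in ctg863.3 a run of 11 lower peaks lies beyond the gene end. In ctg117.8 higher peaks lie in the gene and up to 118 kb upstream, and the lower ones farther upstream.

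Over all members, called peaks that neighbour each other tended to move the same way. Of 735 pairs of neighbouring tested peaks in which both were called, 653 (88.8%) had the same direction, with a median gap of 5.04 kb. The same share was 88.3% in genes with 30 to 39 peaks and 84.8% in all genes with fewer than 40, so the members lie near the others. The spread of the log2 differences within a gene was 0.424 to 1.29 (SD over its peaks), with a median of 0.847 against 0.822 in genes with 30 to 39 peaks. Unequal change among the peaks of a gene was called in all 115 members by edgeR's test for differential use at an adjusted p no larger than 0.05, against a background of 77.7% of 11298 genes. That test takes the peaks of a library as independent, which can make its p-values too small, and by how much was not measured here. On simulated counts with 1 peak of a gene changed by a log2 of 2 it recovered 124 of 200 genes, with 16 false calls among 11304. Those peaks were drawn independently, so this does not measure its false calls in the data. In the data its calls rise with the number of peaks, from 50.3% in genes of up to 4 peaks to 99.6% in those with 30 to 39.

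Peaks inside the gene (TSS and gene body) and outside it were also summed apart, a division made after the data were seen. Of 106 members with a peak inside, 47 (44.3%) were higher inside and 15 (14.2%) lower, against a background of 22.5% and 15.3%. Outside, 31 of 115 (27.0%) were higher and 26 (22.6%) lower, against 16.3% and 26.3%. In genes with 30 to 39 peaks, 38.9% were higher and 13.6% lower inside, and 18.5% were higher and 32.6% lower outside. The larger share of higher sums inside is thus found in that class too. The median log2 difference was 0.33 inside and 0.02 outside, and 0.08 and -0.11 in the other genes. When the log2 ratio of inside to outside was compared between the groups with limma, 20 members (18.9%) had a higher and 5 (4.72%) a lower ratio in ArR_5h, with a median of 0.31. The background was 17.3% and 8.92%, so the share with a higher ratio lies near it and that with a lower one is smaller, and without ArR_5h replicate 1 both counts were 0. Genes with 30 to 39 peaks had 21.7% with a higher and 6.06% with a lower ratio. Among the 20 was evm.TU.ctg117.8, at 1.25 ± 0.26 (adjusted p = 0.0174), and evm.TU.ctg327.5, at 1.20 ± 0.21 (adjusted p = 0.0118). The opposite was seen in evm.TU.ctg326.4, at -1.09 ± 0.28 (adjusted p = 0.0309), in evm.TU.ctg1159.3, at -0.97 ± 0.18 (adjusted p = 0.0135), and in evm.TU.ctg778.4, at -0.66 ± 0.19 (adjusted p = 0.0395), where 16 of the 18 higher peaks lay beyond the gene end.

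The study's own gene list was used here only in part, so other members may be on the rest of it. The part used comes from the study's comparison of ArD_0h with cysts 30 min after EDT. It gives terms for 22 members and holds 4 more without a term. It was picked partly on these ArD_0h libraries, so the direction of its members is not independent evidence. Of these 26 members, 17 were higher as a sum, 0 lower and 9 not called, against the background of 21.1% and 22.7% over all genes, with a median log2 difference of 0.52, against 0.13 for all members. Of their 1243 tested peaks 356 (28.6%) were higher and 96 (7.72%) lower, against 14.5% and 15.2% over all peaks. The files give no gene names, so the terms are all that is known of their products here.

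Terms of gene control and RNA were held by 5 of the 22. evm.TU.ctg786.13, annotated with the mediator complex, which links transcription factors to RNA polymerase, had a sum of 238, 315 and 303 CPM in ArD_0h and 521, 471 and 455 CPM in ArR_5h, a difference of 0.76 ± 0.13 (adjusted p = 0.00177), with 12 of 42 peaks higher and 0 lower. evm.TU.ctg7.20 and evm.TU.ctg1232.1 are annotated as transcription factors that bind particular DNA sequences. The first had a sum of 255, 346 and 328 CPM in ArD_0h and 422, 417 and 407 CPM in ArR_5h, a difference of 0.42 ± 0.12 (adjusted p = 0.0207), which was lost without ArR_5h replicate 1 (adjusted p = 0.0713) or replicate 2 (0.0752), and the other was not called, at 0.19 ± 0.09 (adjusted p = 0.121). evm.TU.ctg538.1, an endoribonuclease, which cuts RNA, had 451, 510.4 and 531 CPM in ArD_0h and 849.7, 789 and 758 CPM in ArR_5h, a difference of 0.68 ± 0.10 (adjusted p = 0.00131), with 21 of 52 peaks higher, 17 of these in the gene body. Its TSS peak, at 15.4, 40.8 and 42.0 CPM in ArD_0h and 73.3, 72.5 and 67.3 CPM in ArR_5h, was higher by 1.12 ± 0.31 (adjusted p = 0.00775). ArD_0h replicate 1 was far below the other libraries there. evm.TU.ctg228.20, annotated with RNA binding, rose by 0.67 ± 0.11 (adjusted p = 0.00175), with 14 peaks higher and 2 lower.

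Transporters made up 3 of the 22. Besides evm.TU.ctg261.24, evm.TU.ctg815.12, a transporter of metal ions across membranes, had 227, 311 and 311 CPM in ArD_0h and 485, 468 and 427 CPM in ArR_5h, a difference of 0.70 ± 0.14 (adjusted p = 0.00342), with 15 peaks higher and 4 lower of 42. evm.TU.ctg740.1, a transporter of ions, had 783, 825 and 813 CPM in ArD_0h and 1135, 1125 and 1079.6 CPM in ArR_5h, a difference of 0.46 ± 0.09 (adjusted p = 0.00373), and its 9 higher peaks all lay in the gene body, while 0 were lower. Its peaks inside the gene rose by 0.78 ± 0.12 (adjusted p = 0.00151) and those outside differed by -0.22 ± 0.12 (adjusted p = 0.155). In all 3 the groups did not overlap.

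Enzymes made up 6 others with a term. evm.TU.ctg1131.1, an acyltransferase, which moves fatty acid or other acyl groups, rose from 228, 306 and 312 CPM to 488, 483 and 439 CPM, by 0.74 ± 0.13 (adjusted p = 0.00245), with 15 peaks higher and 1 lower. evm.TU.ctg778.4, the nucleotide-binding hydrolase, had 223, 264 and 243 CPM in ArD_0h and 422, 395 and 394 CPM in ArR_5h, a difference of 0.73 ± 0.10 (adjusted p = 0.000939), with 18 peaks higher and 3 lower. evm.TU.ctg607.24, with terms of acid phosphatase and protein kinase, had 379, 546 and 502 CPM in ArD_0h and 696, 670.1 and 657 CPM in ArR_5h, a difference of 0.50 ± 0.14 (adjusted p = 0.0147), with 20 peaks higher and 5 lower of 61, and the call was lost without ArR_5h replicate 1 (adjusted p = 0.0582) or replicate 2 (0.0542). evm.TU.ctg143.35, a protein kinase, which adds phosphate to proteins, was not called, at 0.05 ± 0.09 (adjusted p = 0.687), and its 7 higher and 5 lower peaks were nearly even. evm.TU.ctg543.12 and evm.TU.ctg248.7 are given above.

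The other 8 hold various terms, among them evm.TU.ctg117.8 and evm.TU.ctg746.5 given above. evm.TU.ctg100.11, annotated with protein binding, had 284, 365 and 363 CPM in ArD_0h and 572, 537 and 558 CPM in ArR_5h, a difference of 0.72 ± 0.12 (adjusted p = 0.00168), and 16 of its 51 peaks were higher and 0 lower. evm.TU.ctg898.1, annotated with sperm-egg recognition, had 348, 397 and 401 CPM in ArD_0h and 555, 555 and 553 CPM in ArR_5h, a difference of 0.54 ± 0.10 (adjusted p = 0.0026), and 14 of 45 peaks were higher and 0 lower. evm.TU.ctg185.9, annotated with a nucleoside metabolic process, rose by 0.54 ± 0.12 (adjusted p = 0.00748), with 11 peaks higher, all of them upstream, and 1 lower. evm.TU.ctg206.40, the calcium ion binding gene, rose by 0.40 ± 0.11 (adjusted p = 0.0159) over its 58 peaks although its TSS peak did not, and the call was lost without ArR_5h replicate 1 (adjusted p = 0.0672) or replicate 2 (0.06). evm.TU.ctg359.30, annotated with cell adhesion, was not called as a sum, at 0.04 ± 0.10 (adjusted p = 0.748), with 8 peaks higher and 6 lower, all of them upstream. evm.TU.ctg526.18, an ARF guanyl-nucleotide exchange factor, which switches on small GTPases of membrane traffic, was not called either, at 0.15 ± 0.12 (adjusted p = 0.323), with 10 peaks higher and 4 lower.

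The members that lay between other listed genes differed in their values from those at the edge of a contig. Of 32 between other genes, 22 were higher as a sum and 3 lower, with a median log2 difference of 0.51, and 26.3% of their peaks were higher and 8.21% lower. Of 83 that were first or last on the contig, 18 were higher and 18 lower, with a median of 0.04, and 14.7% of their peaks were higher and 15.1% lower. Over all genes, 23.0% of those between others were higher as a sum and 19.1% lower, and 16.8% and 31.0% of those at the edge, and their peaks were higher in 15.9% and 12.0% and lower in 13.9% and 17.5%. The genes of the 32 were longer too, with a median of 155 kb against 73.2 kb. Among the 54 members with a gene over 100 kb, 27 were higher as a sum and 6 lower, while among the 16 with a gene under 5 kb 2 were higher and 3 lower. Over all genes over 100 kb, 25.9% were higher and 24.6% lower, and under 5 kb 14.7% and 31.3%. These divisions were made after the data were seen and were not tested. Members with a TSS peak and those without one had nearly the same shares, with 18.0% and 17.4% of their peaks higher and 14.6% and 12.7% lower.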

How the data were processed

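The authors trimmed, mapped and filtered the reads and called peaks, with BWA and MACS2 named in the labels and the *A. franciscana* assembly in the study's methods. The methods name ChIPseeker for placing peaks in functional regions, and the tool that counted reads is not given in the sources used here, nor is a shift for the Tn5 offset. The deposited values are whole-number counts per merged peak and library, and the authors' RPM values, of which only the library totals behind them were used. The table holds 0 columns of other samples, and no test results.

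The main test was the quasi-likelihood test of edgeR 4.0.16 (R 4.3.3) on TMM-normalized counts after filterByExpr, with no replicate block and with p-values adjusted by Benjamini-Hochberg over all peaks, or over all genes for sums. Called peaks had an adjusted p no larger than 0.05 and a log2 difference of more than 1 either way, and called sums the same p with no limit on size. Each SE was obtained as the log2 difference over the root of F. Ratios of inside to outside used limma 3.58.1 on log2 CPM with a prior count of 2. DESeq2 1.42.0 was another test. A TSS peak overlaps the start of its gene, a gene-body peak lies otherwise over the gene, and the rest lie upstream or beyond the end. Figures and exact tests used Python 3.11.15, numpy 2.4.6, pandas 2.3.3, scipy 1.17.1 and matplotlib 3.10.9. Replicates came from 1 batch of cysts, so p-values measure the spread between these samples. On simulated counts for this comparison the peak test recovered 186 of 200 peaks changed by a log2 of 2, with 7 false calls among 112414 peaks. The test of sums recovered 171 of 200 changed by 1, with 8 false calls among 12004. The simulated peaks were drawn independently, with few changed and no outlying library. In the data neighbouring peaks move together and ArD_0h replicate 1 stands apart, so these rates need not hold there.

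Members and lists were chosen with earlier results of these data known. Genes were named by rule: the 10 with the most peaks, the 4 at each end by share of peaks called, by sum and by TSS difference, the 4 with most peaks of both kinds, those with a term in the study's list, and the 5 largest rises and falls of single peaks. Other named genes were chosen after their values were seen. No sequences are printed, as no genome was used here.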

Additional observations from a re-analysis of the deposited data

How the results depend on the processing

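The most counts moved by over 1.5 times without ArR_5h replicates 1 and 2, and the scaling and the replicate block moved several too, and the causes were not tested. Scaled by the totals under the RPM values, 3 members were lower as a sum, 8 lower inside and 11 lower outside the gene, 37 peaks inside genes were lower, the members' share of those totals was 0.160 points higher in ArR_5h, and the sums of evm.TU.ctg1227.2, evm.TU.ctg1737.1 and evm.TU.ctg424.7 turned to 0.0945, 0.0185 and 0.0792. That scaling moved the median log2 difference of all peaks from -0.07 to 0.09. With the trend on level removed, 6 TSS peaks were higher and 2 lower, and the sums of evm.TU.ctg143.35 and evm.TU.ctg327.5 turned to -0.0622 and -0.0518. A limit of 1 on the log2 difference of sums left 1 higher and 0 lower. A minimum of 30 peaks gave 2159 peaks higher and 1933 lower, 99 sums higher and 80 lower, and a share of counts that changed by -0.278 points, while a minimum of 50 gave 386 and 363, 10 and 9, and -0.0604 points. Peaks within 1000 bp of the TSS gave 24 higher and 2 lower.

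With 1 library left out, 653 to 1149 peaks were higher and 468 to 791 lower, 27 to 52 sums higher and 8 to 25 lower, 35 to 59 higher and 7 to 21 lower inside, 17 to 42 higher and 11 to 36 lower outside, and 0 to 23 ratios of inside to outside higher and 0 to 4 lower. Peaks inside genes were higher in 250 to 447 and lower in 42 to 69, upstream ones higher in 234 to 427 and lower in 190 to 328, those beyond the end higher in 164 to 277 and lower in 236 to 394, and TSS peaks higher in 5 to 20. The sum of evm.TU.ctg1033.5 ranged from -0.0511 to 0.101, that of evm.TU.ctg327.5 from -0.129 to 0.121 and that of evm.TU.ctg359.30 from -0.0224 to 0.0855, all lowest without ArD_0h replicate 1, and none of the 3 was called on all libraries.

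The replicate numbers do not pair the libraries, since the correlations of their deviations from the group means were -0.207, 0.00393 and -0.145 for numbers 1, 2 and 3. With the replicate block 1001 peaks were higher and 694 lower and 33 sums higher and 11 lower, 18 sums were higher and 15 lower outside the gene, and 1 ratio was higher and 0 lower. Among the single genes and peaks named, 719 values kept their direction and call, 33 lost the call, 19 gained one and 9 turned. Low counts limit the peaks that are near 1 CPM in a group.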

Other observations

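Pairs of members shared 8 contigs. On ctg185 evm.TU.ctg185.4 (13 peaks higher, 2 lower) and evm.TU.ctg185.9 (11 and 1) both rose as a sum, with log2 differences of 0.52 and 0.54, and on ctg786 evm.TU.ctg786.10 (17 and 4) and evm.TU.ctg786.13 (12 and 0) rose by 0.38 and 0.76, the first of which was not called without ArR_5h replicate 1, 2 or 3 (adjusted p = 0.107, 0.101 and 0.0851) and was 0.25 without ArD_0h replicate 1. On ctg686 evm.TU.ctg686.2 had 12 peaks higher and 8 lower and evm.TU.ctg686.12 2 and 17, and on ctg1033 evm.TU.ctg1033.5 had 8 and 11 and evm.TU.ctg1033.19 4 and 21. In evm.TU.ctg1033.19 a run of 8 lower peaks from 117 to 172 kb downstream of the TSS had 163, 120.0 and 124 CPM in ArD_0h and 48.8, 55.0 and 69.9 CPM in ArR_5h. These genes were chosen after their values were seen.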
